A study of Mus musculus with 6 samples.

Results

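The nuclear receptors are transcription factors, many of them regulated by ligands. Here 36 of the family, chosen by gene symbol, are described in the obstructed mouse kidney. All 36 were found among the 18849 genes of the expression table, and 31 reached the level needed for testing. RNA of the obstructed kidney was sequenced as 6 libraries. The mice were C57BL/6 males of 8 weeks, studied after 14 days of unilateral ureteral obstruction, in which the ureter of a kidney is tied so that its tubules are damaged and the tissue scars. The control group was 3 libraries from c-Abl flox/flox mice (called floxed here), in which loxP sites flank part of Abl1 and no Cre is named in the labels, although their genotype label reads WT. The knockout group was 3 libraries from mice that carried the same floxed alleles and a Ksp-Cre transgene, c-Abl Epi-cKO in the design text and c-Abl knockdown in the genotype label. Ksp-Cre is driven by the promoter of the kidney cadherin gene Cdh16 and acts in tubule epithelium, so other kidney cells keep Abl1. Kidneys of both groups were obstructed, and unobstructed kidneys were not analysed here. Whether the 3 libraries of a group were separate mice is not stated, and p-values therefore measure only the spread between these libraries, which may be technical.

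Most nuclear receptors have a DNA-binding domain with zinc fingers and a domain for a small lipid-soluble ligand. Such ligands include steroids, fatty acids, bile acids and retinoic acid. Many receptors bind DNA as pairs with a retinoid X receptor (RXR), others as homodimers or single molecules. Where a ligand is bound, it helps decide whether coactivators or corepressors are recruited. In kidney tubules PPAR-alpha and the estrogen-related receptors drive fatty acid oxidation and mitochondrial genes, HNF4A maintains the proximal tubule, the mineralocorticoid receptor controls sodium transport in the distal nephron, and FXR senses bile acids.

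Expression is given as FPKM, fragments scaled by gene length and by the number of mapped fragments, a scale that allows levels of different genes to be compared. The spacing of low values put the depth at roughly 16100000 to 17850000 fragments per library, at which 1 FPKM in a 2-kb transcript stands for 32.2 to 35.7 fragments. Abl1 read 15.93 to 18.16 FPKM in floxed and 10.46 to 14.45 FPKM in knockout libraries, and the groups did not overlap. Lower knockout values without overlap were found for 21.7% of all tested genes. In the comparison described below, Abl1 had a log2 fold change of -0.42 (limma adjusted p = 0.144). Knockout replicate 3 stood apart from its group. It lay at -7.48 on the first principal component, between the floxed libraries (-29.0 to -26.2) and knockout replicates 1 and 2 (54.1 and 37.4), and the component held 61.8% of the variance. Values without that library are therefore given beside the results that rest on it, and they are no added support, because the library was set aside for lying near the floxed libraries. Markers of kidney tubules were detected in every library except Pvalb of the distal convoluted tubule, which was listed at 0 in some, and the 10 proximal tubule markers summed to 840.2 to 1313 FPKM in floxed and to 4536, 3202 and 1179 FPKM in knockout replicates 1, 2 and 3. The 8 fibroblast markers summed to 538.9 to 681.1 FPKM in floxed and to 136.6, 101.8 and 349.6 FPKM in knockout libraries. In these bulk samples fewer cells of a type cannot be told apart from less RNA per cell in any value below.

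The receptors covered a wide range of levels. In the floxed libraries 16 had a mean of at least 10 FPKM, 15 lay between 1 and 10 FPKM, and 5 were under 1 FPKM. The most abundant were Hnf4a at 62.6 ± 9.54, Nr2f2 at 53.0 ± 5.31, Nr2f6 at 46.2 ± 3.93, Nr1h2 at 40.9 ± 3.97 and Nr1h4 at 40.1 ± 5.08 FPKM (SD, n = 3). The ranges of Hnf4a and Nr2f2 overlapped, as did those of Nr2f6, Nr1h2 and Nr1h4, and the lowest Nr2f2 value lay under the highest Nr2f6 value, so the order of neighbours is not resolved. In the knockout libraries the leading receptors were Hnf4a at 102 ± 31.8 and Nr1h4 at 74.0 ± 12.5 FPKM, while Nr2f2 stood at 29.9 ± 4.17 FPKM.

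**Figure D1:**
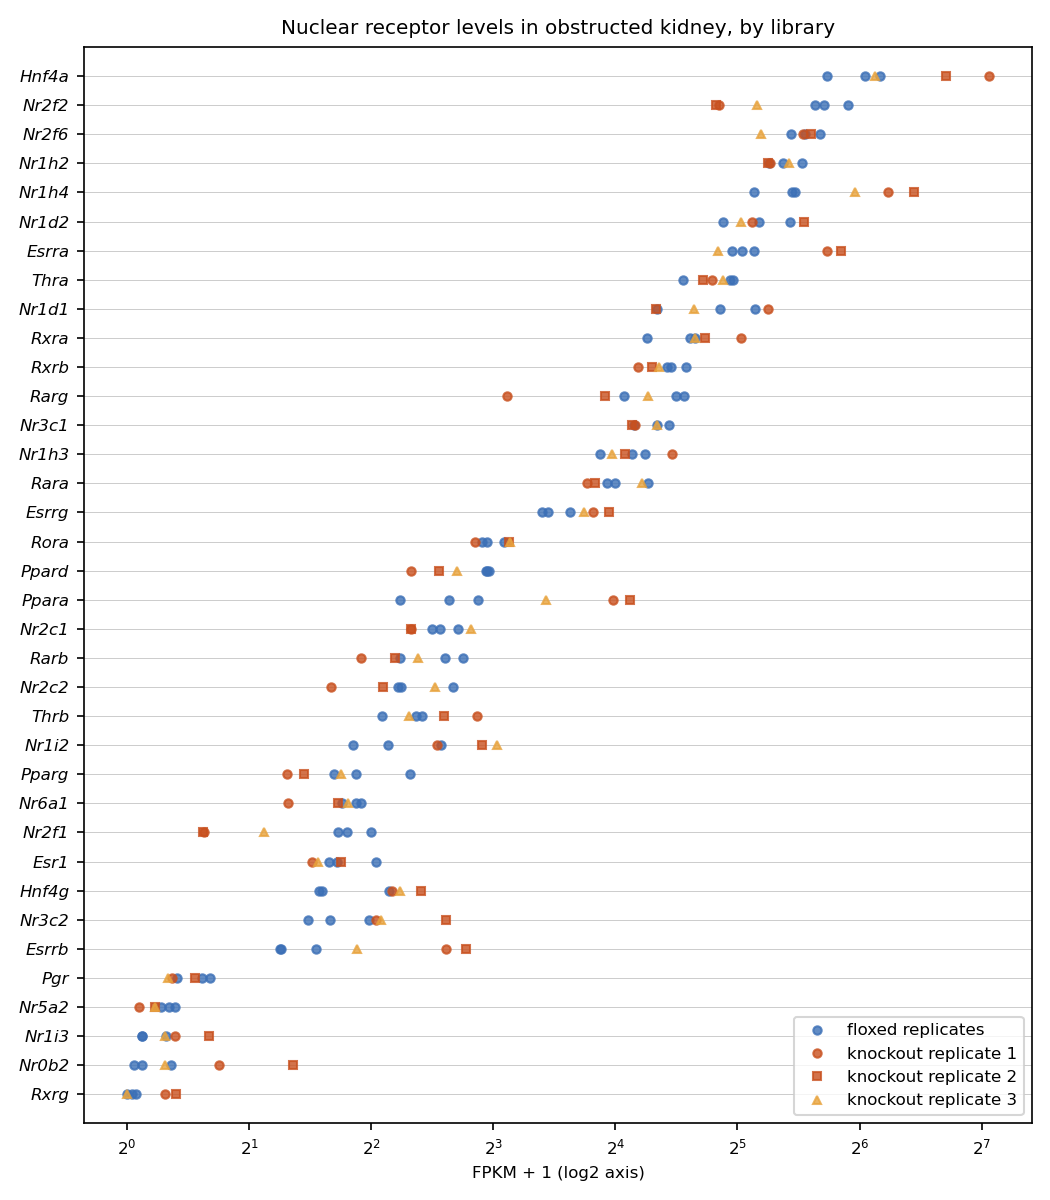
FPKM + 1 of the 36 receptors on a log2 axis, in order of their floxed mean, with the 3 floxed libraries as blue points and the knockout libraries as separate symbols. Hnf4a and Nr2f2 head the order in floxed kidneys, and 5 receptors at the bottom lie under 1 FPKM there.

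Knockout was compared with floxed on the log2(FPKM + 1) scale by limma, over the 13390 genes with at least 1 FPKM in at least 3 libraries, and fold changes are given as knockout minus floxed on that scale. None of the 31 tested receptors passed the Benjamini-Hochberg adjusted limma threshold of 0.05, which 0.0672% of all genes passed (0.0299% higher and 0.0373% lower). Of the 31, 11 had an unadjusted limma p under 0.05, a level that 24.7% of all genes reached. Of these, 8 were higher (25.8% of receptors, 8.38% of all genes) and 3 were lower (9.68% of receptors, 16.3% of all genes). The groups did not overlap for 11 receptors, against 31.7% of all genes. These were 7 with higher knockout values (22.6%, against 10% of all genes) and 4 with lower values (12.9%, against 21.7%). These shares describe the receptors beside the background and were not tested. The count of 11 fell to 6 without floxed replicate 2, without floxed replicate 3 or without knockout replicate 2. With TPM scaling it was 8, 5 higher and 3 lower. The median log2 fold change was -0.04 over the tested receptors and -0.12 over all tested genes, of which 4629 lay above 0 and 8761 below. With median-ratio scaling, which centres the libraries, the medians were 0.10 and 0.00, so the split of 14 receptors above and 17 below 0 became 21 and 10. Ppara, Nr1h4, Esrrb, Nr2f1 and Nr2f2 were the 5 receptors that stayed at an unadjusted p under 0.05 under each alternative that tested them.

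**Figure D2:**
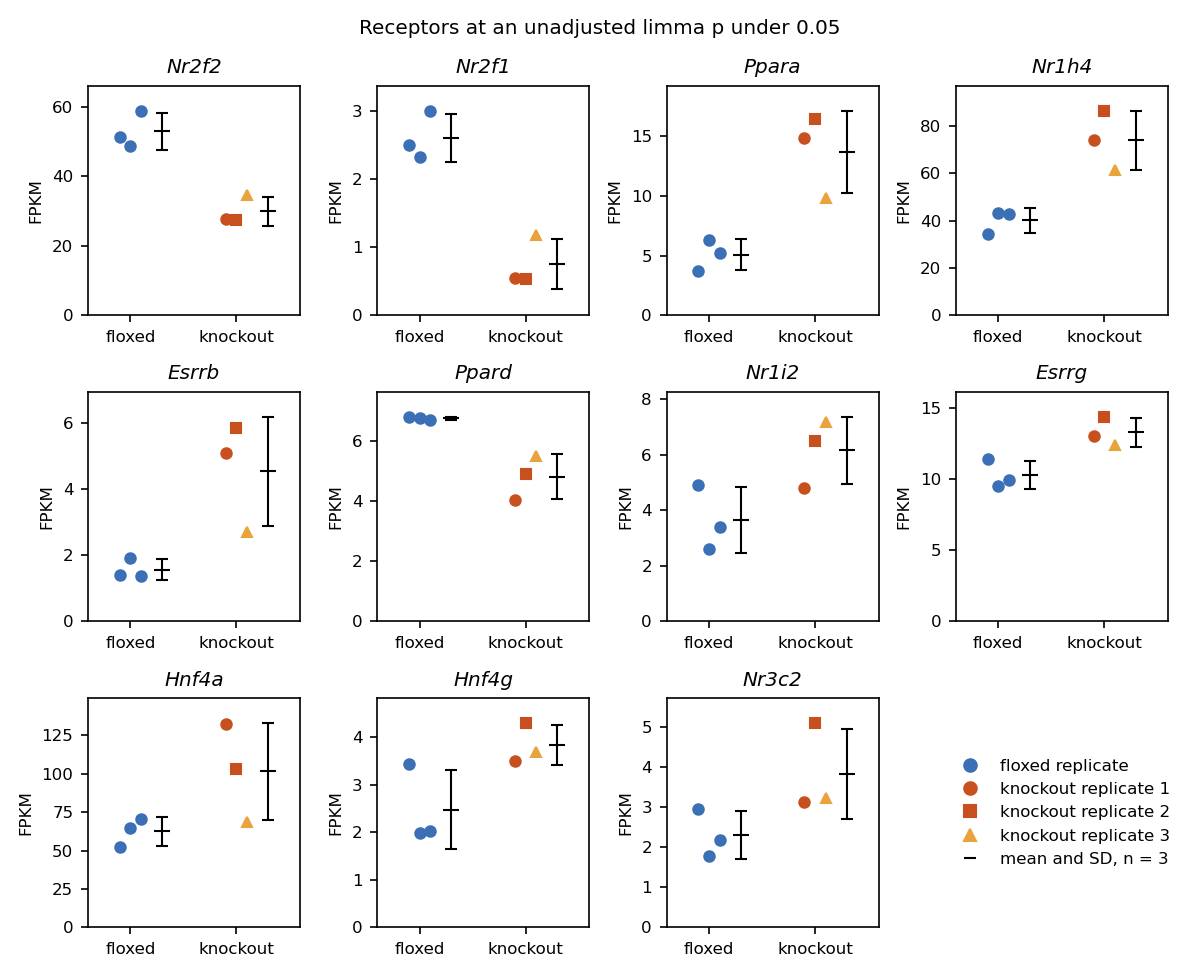
FPKM per library for the 11 receptors at an unadjusted limma p under 0.05, with mean and SD (n = 3) in black and each axis starting at 0. Nr2f2, Nr2f1 and Ppard were lower in the knockout libraries and the other 8 higher, and for Hnf4a and Nr1i2 the groups overlapped.

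The promoters of Ppara, Nr1h4 and Nr2f2 are shown because these receptors were among the 4 with the smallest p and have a single start site in the RefSeq promoter table (build GRCm38.p6, not the mm9 build of the expression values). Each is the 250 bases before the start, 5′ to 3′ on the strand of the gene, with capitals marking the core AGGTCA to which nuclear receptors bind, or its reverse complement TGACCT. The windows are chr15:85735526-85735775 on the plus strand for Ppara, chr10:89506659-89506908 on the minus strand for Nr1h4 and chr7:70366747-70366996 on the minus strand for Nr2f2.
Ppara: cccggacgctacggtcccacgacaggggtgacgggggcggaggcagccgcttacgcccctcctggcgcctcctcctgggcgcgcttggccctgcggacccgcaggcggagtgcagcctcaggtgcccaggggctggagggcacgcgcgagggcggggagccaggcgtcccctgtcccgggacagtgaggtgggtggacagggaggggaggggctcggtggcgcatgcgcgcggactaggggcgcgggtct
Nr1h4: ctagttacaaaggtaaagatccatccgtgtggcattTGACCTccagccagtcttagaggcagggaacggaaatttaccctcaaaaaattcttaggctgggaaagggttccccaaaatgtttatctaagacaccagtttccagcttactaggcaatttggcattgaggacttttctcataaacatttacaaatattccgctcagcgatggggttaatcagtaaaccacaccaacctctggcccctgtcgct
Nr2f2: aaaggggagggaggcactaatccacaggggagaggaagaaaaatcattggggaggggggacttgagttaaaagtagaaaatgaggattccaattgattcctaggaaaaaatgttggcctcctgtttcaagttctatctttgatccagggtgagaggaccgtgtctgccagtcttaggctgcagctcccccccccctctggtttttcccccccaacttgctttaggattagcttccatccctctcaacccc
The Ppara window is rich in G and C (76.4%) and holds 27 CG pairs, against a median of 52.4% and 6 over all 32851 windows. Those of Nr1h4 and Nr2f2 hold 5 and 1 CG pairs at 44.4% and 50% G and C. The Nr1h4 window has 1 AGGTCA core, in its reverse complement and starting 214 bases before the start site, and the other windows shown have none. Over all windows 14.0% hold this core on either strand, and 10 of the 53 windows of the 33 receptors matched in the promoter table do. The direct repeat of this core (AGGTCA, 1 base of any kind, AGGTCA), also searched on both strands and counted within the core matches too, occurs in 0.0335% of all windows and in 0 of the 53. A match is a description of the letters and not a binding site.

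Among the sensors of fatty acids, sterols and bile acids, Ppara and Nr1h4 had the clearest separation between the groups. Ppara encodes PPAR-alpha, the fatty acid receptor that switches on fatty acid oxidation. It read 3.72, 6.32 and 5.21 FPKM in floxed libraries, against 14.8, 16.4 and 9.78 FPKM in knockout replicates 1, 2 and 3. All 3 knockout libraries lay above the floxed range, with replicate 3 the lowest of them. The mean went from 5.08 ± 1.30 to 13.7 ± 3.45 FPKM, 2.69-fold higher, and the log2 fold change of 1.26 (SE 0.238) missed the limma threshold (adjusted p = 0.0627). Among the knockout libraries the proximal tubule marker sums given above were also lowest in replicate 3, there within the floxed range. Of these 10 markers, however, 5 lay above the floxed range in every knockout library, replicate 3 included, against 10% of all genes. On the log2 scale the marker median in replicate 3 was 0.39 above the floxed mean. The part of these markers in the values of Ppara, and of Nr1h4 below, was not tested.

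Nr1h4 encodes the farnesoid X receptor FXR, the bile acid sensor. Its values were 34.21, 43.3 and 42.69 FPKM in floxed libraries, against 74.07, 86.41 and 61.5 FPKM in knockout replicates 1, 2 and 3. The groups did not overlap, and the knockout mean of 74.0 FPKM was 1.85-fold the floxed mean (log2 fold change 0.86, SE 0.164, limma adjusted p = 0.0633). Ppard encodes PPAR-delta, a widely expressed fatty acid receptor, and lay on the other side. The floxed libraries were close together at 6.8, 6.74 and 6.69 FPKM, and the knockout libraries were all lower at 4.02, 4.89 and 5.5 FPKM (log2 fold change -0.42, SE 0.140, limma adjusted p = 0.137). The unadjusted p of Ppard was over 0.05 with quantile scaling (0.0801), without floxed replicate 2 (0.0591) and without floxed replicate 3 (0.0558).

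Pparg, the receptor that drives fat cell formation, read 2.23, 2.66 and 3.99 FPKM in floxed libraries, against 1.48, 1.73 and 2.36 FPKM in knockout replicates. Knockout replicate 3 lay within the floxed range, and the difference was not significant (log2 fold change -0.46, 95% interval -0.97 to 0.05, limma adjusted p = 0.235). With all libraries the unadjusted limma p of Pparg was 0.0702. Of the 14 alternatives that tested it, 3 gave one under 0.05 (lowest 0.0363, without floxed replicate 1). Within a library the ratio of Ppara to Ppard was 0.547, 0.938 and 0.779 in floxed and 3.68, 3.35 and 1.78 in knockout replicates 1, 2 and 3. In floxed kidneys Ppard was thus the more abundant of the pair in each library, and in knockout kidneys Ppara was.

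Nr1i2, the pregnane X receptor PXR that senses drugs and other foreign compounds, read 4.93, 2.61 and 3.4 FPKM in floxed libraries, against 4.82, 6.51 and 7.17 FPKM in knockout replicates 1, 2 and 3. Knockout replicate 1 lay within the floxed range and replicate 3 was the highest, which differs from the order seen in Ppara and Nr1h4 (log2 fold change 0.64, SE 0.225, limma adjusted p = 0.151). The unadjusted p of Nr1i2 was 0.0251 with all libraries. It was 0.0725 without knockout replicate 3, 0.0722 without knockout replicate 2, 0.0865 without floxed replicate 2 and 0.0667 without floxed replicate 3. The oxysterol receptors did not differ beyond their spread. Nr1h2 (LXR-beta) stood at 40.9 ± 3.97 and 38.8 ± 2.66 FPKM with a 95% interval of -0.36 to 0.21 for the log2 fold change, and Nr1h3 (LXR-alpha) at 16.0 ± 2.17 and 17.2 ± 3.39 FPKM with an interval of -0.32 to 0.50. Both signs depend on the setting, Nr1h2 turning positive with median-ratio scaling and Nr1h3 negative without floxed replicate 1 or knockout replicate 1.

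The 5 receptors of energy metabolism and nephron identity all had log2 fold changes above 0, as did 4629 of the 13390 tested genes. At an unadjusted limma p under 0.05, 4 of the 5 were higher, against 8.38% of all genes, and 0 passed the adjusted threshold. That direction held with median-ratio, quantile and TPM scaling. The count of 4 was 2 with TPM scaling (Esrrb and Hnf4a), without floxed replicate 3 (Esrrb and Hnf4a) and without knockout replicate 1 (Esrrb and Esrrg). It was 1, Esrrb, without floxed replicate 2, without knockout replicate 2 or with replicate number added to the model. With a mean FPKM of at least 5 it was 2 (Esrrg and Hnf4a), where Esrrb and Hnf4g were not tested. It was 3 without floxed replicate 1 and 5 with array weights. Esrrb, an estrogen-related receptor known for embryonic stem cells and ion-transporting epithelium, read 1.4, 1.93 and 1.38 FPKM in floxed libraries, against 5.11, 5.86 and 2.7 FPKM in knockout replicates 1, 2 and 3. The groups did not overlap, and replicate 3 lay nearest to the floxed libraries. The log2 fold change was 1.07 (SE 0.253, limma adjusted p = 0.0839), and the mean was 2.90-fold higher.

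Esrrg, a relative that supports mitochondrial and tubular genes, read 11.39, 9.55 and 9.93 FPKM in floxed libraries, against 13.06, 14.4 and 12.42 FPKM in knockout libraries. The groups were apart by a small margin and the difference was small (log2 fold change 0.34, SE 0.124, limma adjusted p = 0.160). Esrra, which works with PGC-1 coactivators on mitochondrial genes, read 34.19, 31.75 and 29.98 FPKM in floxed libraries, against 52.28, 56.68 and 27.72 FPKM in knockout replicates 1, 2 and 3. Knockout replicate 3 lay below all floxed libraries while replicates 1 and 2 lay well above them. With all libraries the log2 fold change was 0.44 (95% interval -0.19 to 1.06, limma adjusted p = 0.330), and without knockout replicate 3 it was 0.75 (limma adjusted p = 0.00715).

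Hnf4a, which maintains proximal tubule cells, read 52.19, 64.89 and 70.86 FPKM in floxed libraries, against 132.4, 103.31 and 68.91 FPKM in knockout replicates 1, 2 and 3. Replicate 3 fell within the floxed range, so the groups overlapped. The log2 fold change was 0.65 (SE 0.248, limma adjusted p = 0.174) with all libraries and 0.90 (limma adjusted p = 0.0166) without knockout replicate 3. Its paralogue Hnf4g read 3.43, 1.98 and 2.02 FPKM in floxed libraries, against 3.5, 4.31 and 3.7 FPKM in knockout libraries, where the highest floxed value was just under the lowest knockout value (limma adjusted p = 0.182). The proximal tubule marker sums given above followed the same order as Hnf4a across the knockout libraries, replicate 1 highest and replicate 3 within the floxed range. Taken singly, 5 of the 10 markers lay above the floxed range in replicate 3 as well, as given above. The part of these markers in the Hnf4a values was not tested.

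**Figure D3:**
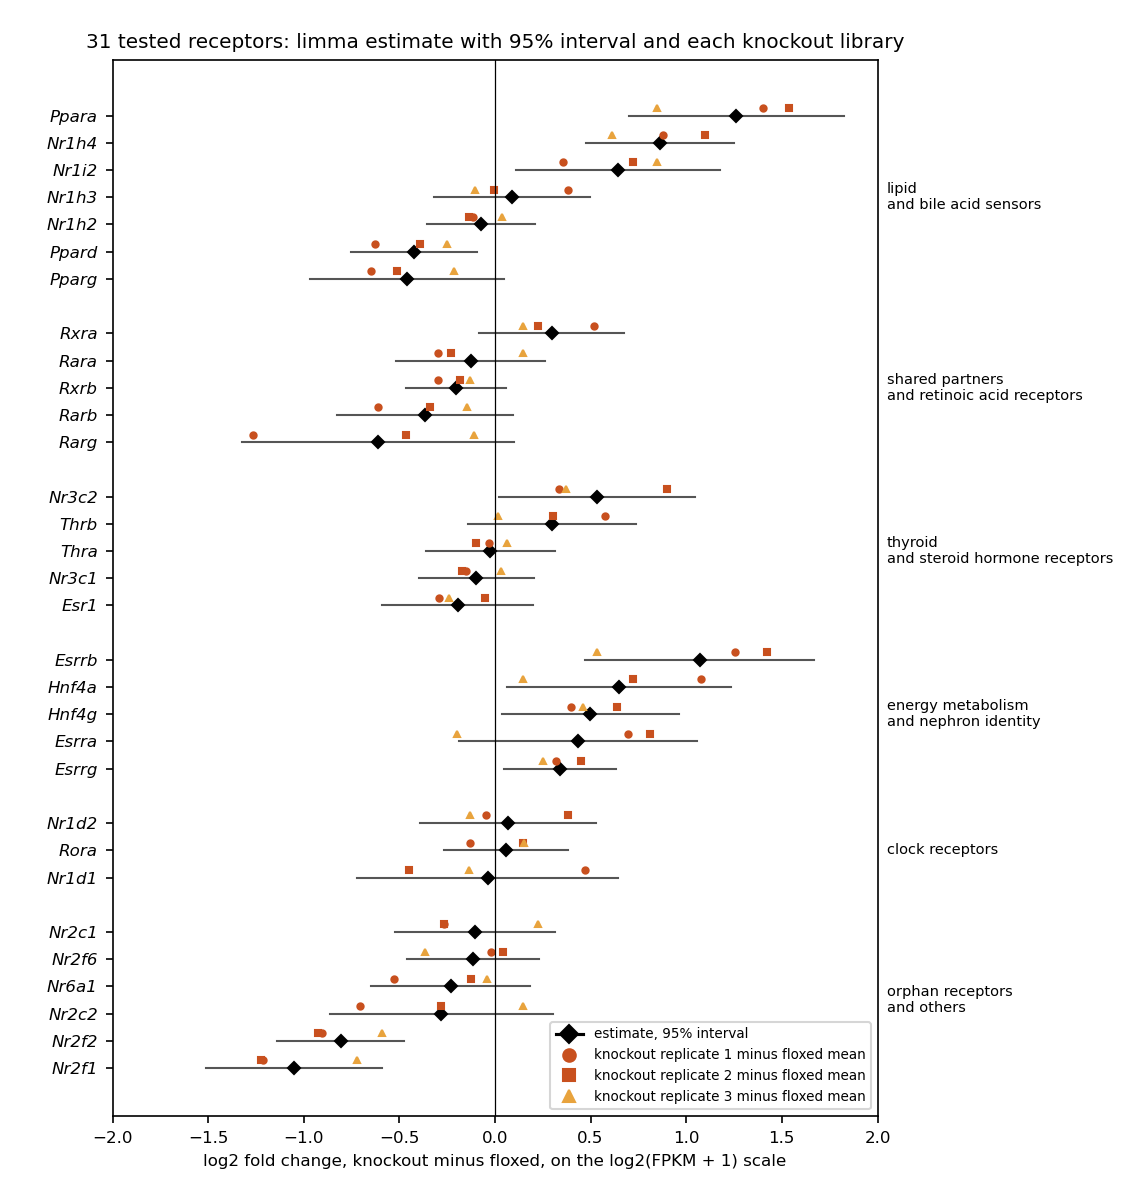
Log2 fold change of the 31 tested receptors on the log2(FPKM + 1) scale by role, with the limma 95% interval as a line and each knockout library minus the floxed mean as coloured symbols. Ppara, Esrrb and Nr1h4 lie farthest right and Nr2f1 and Nr2f2 farthest left, and knockout replicate 3 is often the symbol nearest 0.

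The RXR partners and the retinoic acid receptors showed no member at an unadjusted limma p under 0.05 with all libraries. Rxra, the main dimer partner in epithelium, read 18.18, 24.14 and 23.48 FPKM in floxed libraries, against 31.64, 25.59 and 24.17 FPKM in knockout replicates 1, 2 and 3. The groups did not overlap, yet replicate 3 exceeded the highest floxed library by a small margin, and the log2 fold change of 0.30 had a 95% interval of -0.08 to 0.68 (limma adjusted p = 0.285). Rxrb, the second partner, was slightly lower, at 20.46, 22.94 and 20.92 FPKM in floxed libraries, against 17.23, 18.75 and 19.51 FPKM in knockout libraries (log2 fold change -0.20, 95% interval -0.47 to 0.06, limma adjusted p = 0.289). Rxra thus lay above and Rxrb below the floxed range in all 3 knockout libraries, and neither had an unadjusted p under 0.05 under any alternative run.

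The retinoic acid receptors had log2 fold changes below 0. Rara, present in most tissues, read 18.22, 15.01 and 14.29 FPKM in floxed libraries, against 12.63, 13.27 and 17.57 FPKM in knockout replicates, and knockout replicate 3 was within the floxed range (95% interval -0.52 to 0.26, limma adjusted p = 0.638). With median-ratio scaling the log2 fold change of Rara was 0.0034 in place of -0.13. Rarg stood at 7.66, 14.08 and 18.3 FPKM in replicates 1, 2 and 3 against 22.61, 15.84 and 21.6 FPKM in floxed, and its difference of -0.61 had a wide interval of -1.32 to 0.10. Its unadjusted limma p was 0.0819 with all libraries and 0.0188 without knockout replicate 3. Rarb, itself a retinoic acid target, went from 4.85 ± 1.03 to 3.53 ± 0.726 FPKM (limma adjusted p = 0.279, unadjusted p = 0.0451 without floxed replicate 2).

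Of the thyroid and steroid hormone receptors, Nr3c2 alone had an unadjusted limma p under 0.05 with all libraries (0.0429). It encodes the mineralocorticoid receptor, the aldosterone sensor of the distal nephron, and read 2.95, 1.79 and 2.17 FPKM in floxed libraries, against 3.12, 5.1 and 3.23 FPKM in knockout replicates 1, 2 and 3. Replicate 2 was the highest and the other knockout libraries lay just above the floxed range (log2 fold change 0.54, SE 0.217, limma adjusted p = 0.190). The unadjusted p of Nr3c2 was over 0.05 without the filter (0.0538), with TPM scaling (0.0666), without floxed replicate 2 or 3 and without knockout replicate 2, where it reached 0.142. The 6 principal cell markers were also highest in knockout replicate 2, summing to 236, 700.6 and 181.9 FPKM in knockout replicates 1, 2 and 3 and to 76.32 to 158 FPKM in floxed, and their part in the Nr3c2 values was not tested.

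Nr3c1, the glucocorticoid receptor, was more abundant and did not differ beyond its spread. It read 19.21, 16.81 and 20.7 FPKM in floxed libraries, against 16.88, 16.61 and 19.27 FPKM in knockout, with a 95% interval of -0.40 to 0.20 for the log2 fold change (limma adjusted p = 0.641). The thyroid hormone receptor Thrb stood at 3.92 ± 0.590 and 5.10 ± 1.17 FPKM (limma adjusted p = 0.344, unadjusted p = 0.0488 with quantile scaling and 0.0448 without knockout replicate 3), and Thra at 27.5 ± 4.31 and 26.8 ± 1.57 FPKM (limma adjusted p = 0.926). Esr1, the estrogen receptor alpha, stood at 2.51 ± 0.514 and 2.06 ± 0.276 FPKM (limma adjusted p = 0.478).

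The clock receptors did not separate the groups. Nr1d1 and Nr1d2 encode the repressors REV-ERB-alpha and REV-ERB-beta, and Rora encodes an activator that binds the same DNA element. Nr1d1 read 34.35, 19.3 and 27.94 FPKM in floxed libraries, against 37.14, 19.11 and 24.04 FPKM in knockout replicates 1, 2 and 3, so both groups spanned nearly the same range. Nr1d2 stood at 35.3 ± 6.75 and 37.1 ± 7.59 FPKM and Rora at 6.91 ± 0.533 and 7.26 ± 0.892 FPKM (limma adjusted p = 0.838 and 0.804). The signs of Nr1d1 and Nr1d2 changed with single libraries left out. The labels give no hour of tissue collection. Exons of Nr1d1 overlap those of Thra on the opposite strand in GENCODE, and strand use in counting is not given, so reads of the overlap cannot be told apart. The same holds for 7 other receptors that share exon bases with a gene on the other strand, among them Esrra with Trmt112, Nr2c2 with Mrps25, Rarb with Top2b and Nr3c2 with a noncoding RNA.

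The COUP transcription factors Nr2f2 and Nr2f1 had the lowest log2 fold changes of the 31 tested receptors. Nr2f2 encodes COUP-TFII, known for stromal, venous and atrial cells and as a repressor that competes for DNA sites with HNF4 and RXR pairs. It read 51.4, 48.68 and 58.93 FPKM in floxed libraries, against 27.77, 27.32 and 34.75 FPKM in knockout replicates 1, 2 and 3. Every knockout library lay far below the floxed range, including replicate 3. The floxed mean was 1.77-fold the knockout mean, with a log2 fold change of -0.81 (SE 0.140), and the limma adjusted p of 0.0547 was the smallest of the receptors and just missed the threshold.

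Nr2f1 encodes COUP-TFI, the close relative of COUP-TFII. It read 2.49, 2.32 and 3 FPKM in floxed libraries, against 0.55, 0.54 and 1.18 FPKM in knockout replicates 1, 2 and 3 (log2 fold change -1.05, SE 0.194, limma adjusted p = 0.0618). The groups were again apart, and the floxed mean was 3.44-fold the knockout mean. Of the 31 tested receptors 30 had at least 1 FPKM in every library, and Nr2f1 is the exception. It was tested only because its floxed values passed the filter, so its place in the counts above is not independent of its difference. Within a library the ratio of Nr2f2 to Hnf4a was 0.985, 0.75 and 0.832 in floxed and 0.21, 0.264 and 0.504 in knockout replicates 1, 2 and 3. The fibroblast marker sums given above were lower in the same libraries, and no fibroblast marker was at 0 in any library. Of these 8 markers, 6 were lower at an unadjusted limma p under 0.05, against 16.3% of all genes. The 5 smooth muscle markers summed to 149.7 to 226.2 FPKM in floxed and to 45.53, 39.58 and 125.6 FPKM in knockout replicates 1, 2 and 3. Of these 5, 3 were lower at an unadjusted limma p under 0.05, and for Acta2, Myh11 and Cnn1 the groups overlapped. The 6 endothelial markers summed to 89.47 to 167.6 FPKM in floxed and 82.86 to 99.09 FPKM in knockout. The part of these cells in the Nr2f1 and Nr2f2 values was not tested.

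None of the remaining orphan receptors had an unadjusted limma p under 0.05. Nr2f6, a further COUP-TF relative, stood at 46.2 ± 3.93 and 42.8 ± 6.42 FPKM, and the testicular receptors Nr2c1 and Nr2c2 at 5.04 ± 0.453 and 4.68 ± 1.18, and at 4.25 ± 0.953 and 3.40 ± 1.29 FPKM. Nr6a1, the germ cell nuclear factor, stood at 2.61 ± 0.207 and 2.10 ± 0.531 FPKM. Their limma adjusted p ranged from 0.426 to 0.722. All 6 tested receptors of this group had log2 fold changes below 0, as did 8761 of the 13390 tested genes. With median-ratio scaling, however, Nr2f6 and Nr2c1 turned positive, and with quantile scaling Nr2c1 and Nr6a1 did.

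The 5 receptors under the filter were Nr1i3, Rxrg, Pgr, Nr5a2 and Nr0b2, and they were tested only in the alternative without the filter. There 13 of 36 receptors had an unadjusted limma p under 0.05, against 20.7% of all genes, and 0 passed the adjusted threshold. Among the 13 were Nr5a2, Nr1i3 and Nr0b2, with unadjusted p of 0.0301, 0.0465 and 0.0475. Nr0b2 encodes SHP, a repressor without a DNA-binding domain that FXR induces in liver. It read 0.28, 0.09 and 0.04 FPKM in floxed libraries, against 0.69, 1.56 and 0.24 FPKM in knockout replicates 1, 2 and 3, and replicate 3 lay within the floxed range. Rxrg read 0, 0.03 and 0.05 FPKM in floxed libraries, against 0.24, 0.32 and 0 FPKM in knockout libraries. Nr1i3, the constitutive androstane receptor CAR, read 0.25, 0.09 and 0.09 against 0.31, 0.59 and 0.24 FPKM, and the groups overlapped. The progesterone receptor gene Pgr was at 0.26 to 0.6 FPKM over all libraries. Nr5a2, a liver and pancreas receptor, read 0.21 to 0.31 FPKM in floxed and 0.07 to 0.17 FPKM in knockout libraries, so the groups did not overlap, at levels where a few fragments decide the value.

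Without knockout replicate 3, 8 of the 31 receptors passed the adjusted limma threshold, 5 higher and 3 lower. The higher ones were Ppara, Nr1h4, Esrra, Esrrb and Hnf4a, and the lower ones Ppard, Nr2f1 and Nr2f2. Their log2 fold changes were then 1.47 for Ppara, 1.34 for Esrrb, 0.99 for Nr1h4, -0.92 for Nr2f2 and -1.22 for Nr2f1. That share of 25.8% was close to the 24.4% of all genes that passed without this library (9.02% higher and 15.4% lower). At an unadjusted p under 0.05 there were then 13 receptors, against 40.5% of all genes, and the groups did not overlap for 21 receptors (10 higher and 11 lower), against 59.6% (18.1% higher and 41.5% lower). Of the 11 receptors at an unadjusted p under 0.05 with all libraries, 8 had knockout replicate 3 nearest the floxed mean (72.7%), and the same held for 80.6% of all genes at that p. Hnf4g, Nr1i2 and Nr3c2 were the exceptions.

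Coregulators are the proteins that receptors recruit, and all 22 on the list were tested. None passed the adjusted limma threshold, and 1 of the 22 had an unadjusted p under 0.05, against 24.7% of all genes. That was Pprc1, a relative of PGC-1, at 7.96, 8.9 and 9.82 FPKM in floxed libraries, against 3.36, 6.03 and 6.58 FPKM in knockout libraries (log2 fold change -0.68, limma adjusted p = 0.140). The coactivator PGC-1-alpha (Ppargc1a), partner of PPAR-alpha and the estrogen-related receptors, read 8.6, 6.99 and 5.91 FPKM in floxed libraries, against 11.23, 13.38 and 7.72 FPKM in knockout replicates 1, 2 and 3. Knockout replicate 3 was within the floxed range (log2 fold change 0.51, limma adjusted p = 0.208). The ferritin receptor and coactivator Ncoa4 stood at 41.8 ± 2.65 and 53.0 ± 10.9 FPKM, with a limma adjusted p of 0.260. The list median was -0.16 and 18 of 22 were below 0, where all tested genes had a median of -0.12 and 8761 of 13390 below 0. With median-ratio scaling, however, the list median was -0.03 and 13 were below 0.

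Of the 13 further nuclear receptors outside the 36, 5 were tested. At an unadjusted limma p under 0.05, 2 were higher and 2 lower (40.0% each, against 8.38% and 16.3% of all genes), and 0 passed the adjusted threshold. Vdr, the receptor for active vitamin D, read 24.75, 25.26 and 21.79 FPKM in floxed libraries, against 54.57, 46.27 and 48.31 FPKM in knockout libraries, with replicate 3 as high as the others (log2 fold change 1.02, SE 0.119, limma adjusted p = 0.0547). The immediate early receptors Nr4a1 and Nr4a2 were lower, at 13.5 ± 3.81 and 3.64 ± 1.16 FPKM and at 1.51 ± 0.131 and 0.533 ± 0.291 FPKM (limma adjusted p = 0.0547 and 0.0948). Nr4a2 was under 1 FPKM in every knockout library and was tested only through its floxed values, so its place in that count is not independent of its difference.

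Known targets of the receptors were followed in 12 lists written from general knowledge. The counts of each list are read beside the 8.38% of all genes that were higher and the 16.3% that were lower at an unadjusted limma p under 0.05. Among the 25 tested targets of PPAR-alpha, 22 had an unadjusted limma p under 0.05, all higher (88.0%, against 8.38% of all genes), and 2 passed the adjusted threshold. The median gene of the list was 1.01 higher on the log2 scale. Set against the floxed mean, the 3 knockout libraries had medians of 1.19, 0.93 and 0.82. The list shares 0 genes with the cell type markers. Of the 10 proximal tubule markers 7 were also higher at an unadjusted limma p under 0.05, and their part in this list was not tested. The fatty acid omega-hydroxylases Cyp4a10 and Cyp4a14 rose (limma adjusted p = 0.0446 for both), from 15.71, 17.06 and 18.9 to 140.32, 105.18 and 73.85 FPKM and from 7.28, 3.34 and 4.23 to 43.98, 97.18 and 51.54 FPKM. Both kept the adjusted call with TPM scaling, with array weights and without knockout replicate 3, and lost it under the 12 other alternatives, median-ratio and quantile scaling among them. Without knockout replicate 3 the list had 19 genes past the threshold. Acot1, an acyl-CoA thioesterase, read 20.9 ± 1.92 and 44.8 ± 4.51 FPKM (limma adjusted p = 0.0547).

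Both tested FXR targets, Slc51a and Slc51b, which form the bile acid exporter of the basolateral membrane, had an unadjusted limma p under 0.05 and 0 passed the adjusted threshold. Slc51b read 19.54, 18.77 and 20.07 FPKM in floxed libraries, against 41.67, 50 and 32.26 FPKM in knockout libraries, and Slc51a 25.09, 20.64 and 19.54 against 50.69, 39.43 and 29.21 FPKM (limma adjusted p = 0.0547 and 0.0952). Of these, as of Nr1h4 itself, knockout replicate 3 was the lowest knockout library yet above the floxed range. The proximal tubule marker sums given above were also lowest in knockout replicate 3 among the knockout libraries, and their part in these values was not tested. The 4 other listed FXR targets were under the filter.

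Among 16 proximal tubule genes that depend on HNF4A, 13 had an unadjusted limma p under 0.05, all higher (81.2%, against 8.38% of all genes), with a list median of 1.53, and 0 passed the adjusted threshold (15 without knockout replicate 3). Taken singly, knockout replicates 1, 2 and 3 had list medians of 2.06, 1.92 and 0.58 relative to the floxed mean. Of these genes 7 are also among the proximal tubule markers, so the list does not separate HNF4A activity from the amount of proximal tubule RNA. The gluconeogenic enzyme Pck1 read 111.86, 111.68 and 134.63 FPKM in floxed libraries, against 756.53, 1155.63 and 326.35 FPKM in knockout libraries, and G6pc 7.2, 12.8 and 9.41 against 101.18, 112.17 and 25.86 FPKM.

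For the estrogen-related receptors and PGC-1, 7 of 10 tested targets were higher at an unadjusted limma p under 0.05 (against 8.38% of all genes) and 0 passed the adjusted threshold, with a list median of 0.65. Knockout replicates 1, 2 and 3 had list medians of 0.57, 0.74 and 0.21 relative to the floxed mean, and without replicate 3 the adjusted threshold was passed by 8. The proximal tubule marker sums given above were likewise lowest in knockout replicate 3 among the knockout libraries. Their part in this list was not tested. Acadm is on this list and on that of the PPAR-alpha targets, so these lists are not separate. The ATP synthase subunit Atp5b stood at 455 ± 86.8 and 823 ± 220 FPKM, and the mitochondrial fusion protein Mfn2 at 17.9 ± 1.43 and 25.3 ± 4.21 FPKM (limma adjusted p = 0.121 and 0.134).

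Targets of the mineralocorticoid receptor included 6 higher and 1 lower of 12 at an unadjusted limma p under 0.05 (against 8.38% and 16.3% of all genes), and 0 passed the adjusted threshold. The list shares 3 genes with the principal cell markers and 1 with those of the distal convoluted and connecting tubule. All 6 principal cell markers were higher at an unadjusted p under 0.05, and their part in this list was not tested. Scnn1a, part of the epithelial sodium channel, stood at 15.6 ± 1.51 and 36.3 ± 13.2 FPKM (limma adjusted p = 0.0719). Scnn1a, like Nr3c2, was highest in knockout replicate 2, at 51.51 FPKM. Endothelin Edn1 was lower, at 23.47, 58.77 and 28.79 FPKM in floxed libraries, against 8.93, 16.22 and 14.3 FPKM in knockout libraries. Of 15 glucocorticoid receptor targets 2 were higher (13.3%) and 1 was lower (6.67%), near or under the shares of all genes. Pck1, listed here as well, and the lipase inhibitor Angptl4 (63.2 ± 12.2 and 93.5 ± 17.2 FPKM) were higher, and the stress gene Ddit4 was lower (31.5 ± 7.33 and 20.6 ± 5.13 FPKM, limma adjusted p = 0.173).

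In the retinoid list 1 of 9 tested genes was higher and 3 were lower at an unadjusted limma p under 0.05. The retinoic acid synthesis enzymes split, Aldh1a2 being lower (40.9 ± 12.7 and 14.8 ± 9.43 FPKM) and Aldh1a1 higher (7.96 ± 2.44 and 30.8 ± 16.4 FPKM, limma adjusted p = 0.103 and 0.0797). Of 10 LXR targets 3 were higher and 4 lower, against 8.38% and 16.3% of all genes. The 7 macrophage markers summed to 615 to 868.9 FPKM in floxed and to 276.7, 294.5 and 506.3 FPKM in knockout replicates 1, 2 and 3, all 6 tested ones being lower at an unadjusted p under 0.05, and their part in the LXR list was not tested. The lipid transfer protein Pltp was lower at 52.5 ± 12.6 and 20.1 ± 4.62 FPKM, while the desaturase Scd1 (11.1 ± 0.215 and 26.1 ± 9.90 FPKM) and Smpdl3a (76.8 ± 7.03 and 135 ± 33.4 FPKM) were higher (limma adjusted p = 0.0547, 0.0723 and 0.0855).

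Thyroid hormone genes showed 2 higher and 1 lower of 7. The thyroid hormone-binding protein Crym stood at 14.1 ± 1.81 and 24.7 ± 0.318 FPKM (limma adjusted p = 0.0547). The corepressor Hr, a thyroid hormone target, stood at 3.19 ± 0.741 and 1.80 ± 0.906 FPKM (limma adjusted p = 0.202). Of 3 tested PXR and CAR targets the cytochrome P450 reductase Por was higher (32.0 ± 6.65 and 54.9 ± 11.1 FPKM, limma adjusted p = 0.0952), while Alas1 and Cyp3a13 stood at 45.6 ± 13.8 and 47.0 ± 11.5 and at 5.05 ± 1.43 and 4.83 ± 0.377 FPKM.

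Of 15 circadian loop genes 2 were higher and 2 lower at an unadjusted limma p under 0.05 (13.3% each), near the 8.38% and 16.3% of all genes. The output factor Hlf read 5.15, 4.05 and 5.95 FPKM in floxed libraries, against 17.44, 23.81 and 8.11 FPKM in knockout libraries (limma adjusted p = 0.0922). Arntl, the activator that REV-ERB represses, read 2.35, 3.86 and 3.83 against 1.37, 1.17 and 2.49 FPKM, and Tef stood at 41.4 ± 8.39 and 73.6 ± 27.5 FPKM (limma adjusted p = 0.147 and 0.182). The fat cell targets of PPAR-gamma had 3 of 9 tested, none at an unadjusted p under 0.05, with Fabp4 at 72.8 ± 21.9 and 81.5 ± 32.4, Cebpa at 22.3 ± 0.106 and 21.9 ± 2.58 and Lpl at 70.1 ± 20.2 and 79.4 ± 69.9 FPKM. Markers of fat cells summed to at most 0.61 FPKM in any library, with Adipoq, Plin1 and Retn listed at 0 in at least 1 library.

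**Figure D4:**
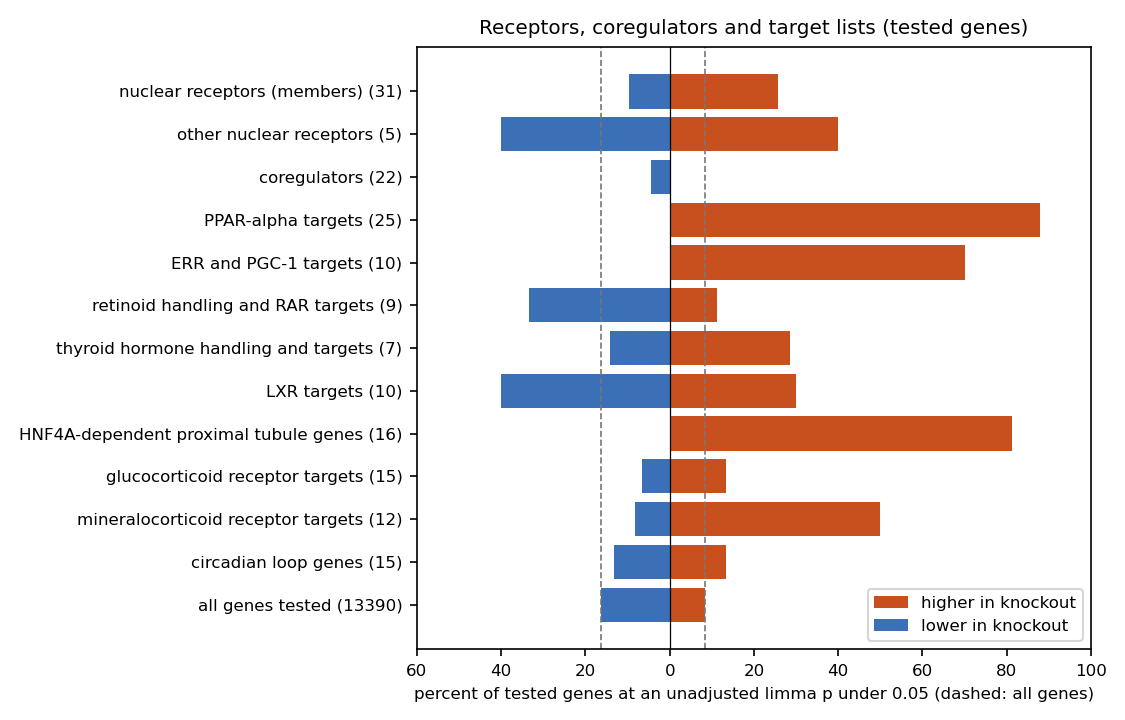
Percent of tested genes at an unadjusted limma p under 0.05 in each list with at least 5 tested genes, higher in knockout to the right and lower to the left, with the number tested in brackets and dashed lines at the shares of all genes (8.38% higher and 16.3% lower). The names ERR, RAR and LXR stand for the receptors named in the text, and the bars of the PPAR-alpha, HNF4A, estrogen-related receptor and mineralocorticoid receptor lists extend farthest to the right.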

How the data were processed

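The deposited table holds 1 FPKM value for each gene in each library, as its header names them, with 2 decimals. The submitters' processing notes name mm9 as the genome build. The aligner, counter, annotation and strand setting were not given in the sources used here. Groups and replicate numbers come from the sample titles. Of the Entrez identifiers, 18792 were found in the RefSeq table, and 26 symbols turned into dates were restored through it. FPKM is relative to all mapped fragments, and abundant genes can thus shift the values of others. Depth was estimated from low values of genes with a single GENCODE transcript of 300 to 2000 nucleotides. Between 60.1% and 65.5% of these lay within 0.2 of a whole fragment, where 40% would do so if evenly spread, so the estimate is approximate and no count test was run.

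A gene was tested where 3 or more libraries reached an FPKM of 1. Tests were made by limma 3.58.1 in R 4.3.3 on log2(FPKM + 1), with group alone in the model and a trend of variance on mean. They were two-sided, with Benjamini-Hochberg adjustment over all 13390 genes at 0.05. The method was tested on simulated data with independent noise in each library. No simulated library stood apart from its group as knockout replicate 3 did, so that test does not cover such a library. Python 3.11.15 with pandas 2.3.3 and matplotlib 3.10.9 made the summaries and plots. The alternatives were another pseudocount (0.1), other filters, 3 scalings, no trend, array weights, a replicate block and each library left out. The receptors, the lists and the rule for named genes were chosen with earlier results of these data known. By that rule each receptor is accounted for, values per library are given for receptors at an unadjusted p under 0.05, for those whose groups did not overlap and for 9 named receptors (Ppara, Pparg, Rxra, Rara, Nr1h4, Hnf4a, Esrra, Nr3c1 and Nr3c2), and the 3 tested genes of smallest p are named from each list. Some of these genes are not reported here. Values per library of other receptors and genes were added after they were seen. Lists are described by counts and medians, with no list test. No library pair held identical values. Lep, on the list of fat cell genes, was not found by symbol.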

Additional observations from a re-analysis of the deposited data

How the results depend on the processing

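With all libraries, 0 tested receptors passed the adjusted limma threshold under each alternative except array weights, which gave 5 (Nr1h4, Nr2f2, Esrrb, Ppara and Nr2f1) after its fit stopped before its tolerance; leaving out single libraries gave 0 to 8. The count at an unadjusted p under 0.05, 11, was 6 with a mean FPKM of at least 5, where 19 receptors were tested, and 6 to 13 with single libraries left out. The count with groups apart, 11, was 7 with that filter and 12 to 21 with single libraries left out, which smaller groups favour by construction. The receptor median of -0.04 was 0.10 with median-ratio, 0.04 with quantile and -0.09 with TPM scaling, 0.03 with array weights and -0.14 to 0.01 with single libraries left out. Over all genes the adjusted count of 9 was 1 without the filter or with a stricter one (mean FPKM of 5 or more), without the trend, with a pseudocount of 0.1 and with quantile or median-ratio scaling. It was 1456 with array weights and 0 to 3271 with single libraries left out.

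Samples with the same replicate number did not deviate together (correlations across genes of -0.126, -0.0699 and 0.0341 for numbers 1, 2 and 3), so the numbers were not taken to pair them. With the replicate block 2 genes passed the adjusted threshold, 0 of them receptors, and 6 receptors had an unadjusted p under 0.05, Ppard, Nr1i2, Nr3c2, Esrrg, Hnf4a and Hnf4g having lost that level and Pparg having gained it.

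Receptors that changed sign had no unadjusted p under 0.05 in any of these fits, and the cause was not tested. With median-ratio scaling they were Nr1h2 (0.064), Rara (0.0034), Thra (0.11), Nr3c1 (0.035), Nr1d1 (0.10), Nr2c1 (0.009) and Nr2f6 (0.022), with quantile scaling Thra (0.03), Esr1 (0.045), Nr2c1 (0.11) and Nr6a1 (0.008), and with array weights Thra (0.039) and Nr1d1 (0.14). With single libraries left out the log2 fold change ranged from -0.057 to 0.19 for Nr1h3, -0.16 to 0.05 for Thra, -0.29 to 0.17 for Nr1d1, -0.088 to 0.2 for Nr1d2 and -0.19 to 0.012 for Nr2f6. At this depth the 5 receptors under 1 FPKM rest on few fragments.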
